A study of Mus musculus with 15 samples.

Results

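The change that Activin A made in the liver was set against the change that a Gpnmb hairpin made, gene by gene, in 12 of the series' 15 libraries. The 12 were chosen because 2 deposited count tables hold them: one with the Activin A libraries and their controls, the other with the hairpin libraries and theirs. All 12 came from livers of male C57BL/6J mice kept for 16 weeks on the FPC NASH diet, which produces steatohepatitis, together with sugar water. In 2 of the 4 groups an adeno-associated virus (AAV8) expressed either Activin A or, as the control, GFP from the TBG promoter (of the gene for thyroxine binding globulin), which is liver-specific. In the other 2 an AAV8 expressed, from an H1 promoter, either an shRNA against Gpnmb or a scrambled one. Each group had 3 libraries. The chow-fed GFP libraries, the remaining 3 of the series, had no place in the comparison. Age, virus dose, hour of collection and feeding state are not stated in the labels, nor is it stated that each library stands for its own animal. The p-values below therefore measure the spread between these samples, which may be technical. Each treatment was compared with its own control, and the 2 controls differ in vector and promoter.

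Activin A is a secreted dimer of the Inhba product. It binds type II and type I receptors that phosphorylate SMAD2 and SMAD3, and follistatin traps it outside the cell. Gpnmb encodes a transmembrane glycoprotein that marks lipid-loaded macrophages of the steatotic liver. Hepatocytes, which make up most of the mass of the liver, change their transcription with insulin and fasting, with the hour of the day through the circadian clock, and with the pulsatile growth hormone pattern of males, which acts through STAT5B on sex-biased genes. Lists of genes from each of these programmes were therefore read side by side for both treatments.

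The targeted genes were read first. Gpnmb (ENSMUSG00000029816, chromosome 6 of GRCm38) stood at 42.2, 27.1 and 25.9 CPM (counts scaled to a common library size) in the GFP libraries and at 5.89, 3.50 and 3.06 CPM under Activin A. It stood at 26.9, 37.1 and 33.6 CPM under the scrambled shRNA and at 1.53, 1.32 and 3.45 CPM under the hairpin. Both treated groups lay below both control groups without overlap. On the log2 scale Gpnmb fell by 2.93 ± 0.29 (SE, n = 3 per group) under Activin A and by 3.94 ± 0.32 under its hairpin, and the difference of the effects, 1.02 ± 0.44, did not pass the test (edgeR adjusted p = 0.191). Inhba (ENSMUSG00000041324, chromosome 13) rose under both treatments, from 8.35 ± 0.119 CPM (SD, n = 3) to 25.9 ± 0.922 CPM under Activin A and from 5.68 ± 0.697 to 10.9 ± 1.77 CPM under the hairpin. Its rise was larger under Activin A by 0.70 ± 0.19 on the log2 scale (edgeR adjusted p = 0.0425), a call lost under several alternatives, with an adjusted p of up to 0.109. Whether transcripts of the transgene itself were counted under Inhba is not stated in the labels.

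Library totals ran from 16121073 to 23467867 counts, and albumin transcripts took 4.53% to 5.58% of each. The GFP libraries stood apart from one another. Between pairs of them the chi-square of the counts over its degrees of freedom was 35.0 to 71.4, against 5.53 to 21.5 for pairs within the other groups. GFP library 3 was low for the lipogenic gene Thrsp and for clock genes such as Per3 and Ciart. Because the GFP group enters the Activin A effect only, values without that library are given beside the groups of genes it touches.

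For each of 15538 genes tested, the difference is the log2 fold change under Activin A minus the log2 fold change under the hairpin, so a positive value means that the gene stood relatively higher after Activin A. At an edgeR adjusted p under 0.05 the difference was called for 1088 genes, 7.00% of those tested. It was positive for 500 (3.22%) and negative for 588 (3.78%), and at least 2-fold for 239 and 234 of them. Without GFP library 3 the counts were 655 and 642. Against its own control, Activin A changed 1405 genes (9.04%), of which 495 rose (3.19%) and 910 fell (5.86%). Of these 1405, 610 were also called under the hairpin. The hairpin changed 2812 genes (18.1%), with 1389 higher (8.94%) and 1423 lower (9.16%). The scramble and GFP controls differed at 684 genes (4.40%), 271 of them higher in scramble (1.74%) and 413 lower (2.66%). Among the 1088 genes, 150 were also called between the controls.

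The 1088 genes fell into distinct patterns. The largest group changed under the hairpin alone, with 363 genes that rose and 251 that fell there while Activin A made no called change. A further 129 rose and 118 fell under Activin A alone. Opposite called changes were found for 116 genes, 68 of which rose under Activin A and fell under the hairpin, and 48 the reverse. In 17 genes both treatments moved the gene the same way by different amounts, and in 94 neither effect was called by itself (49 positive and 45 negative differences). Against these stood 494 genes that both treatments changed in the same direction, 80 upward and 414 downward, of which only the 17 just counted had a called difference. Across all genes tested the 2 effects had a Pearson correlation of 0.26, given as a description, since genes are not independent and each library contributes to every gene.

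**Figure D1:**
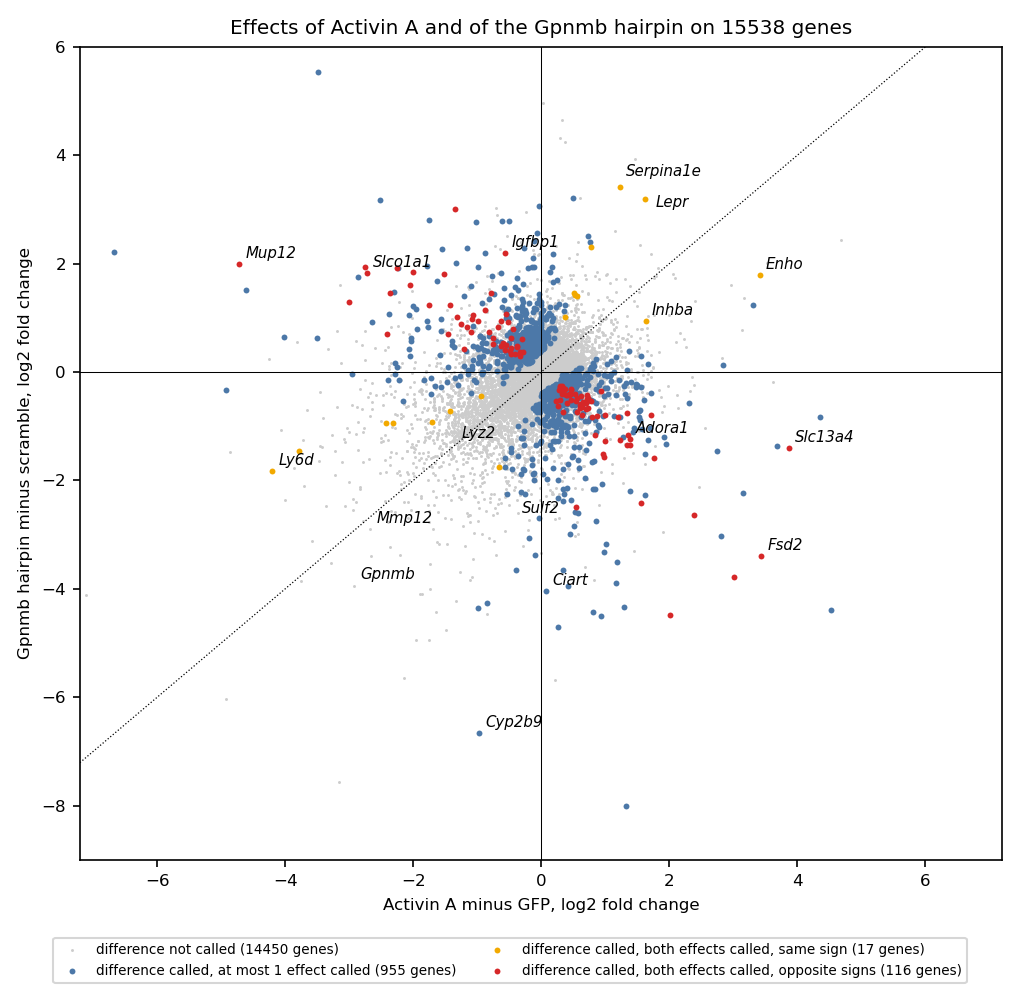
Each point is 1 of 15538 genes, with the log2 fold change under Activin A on the x axis and under the Gpnmb hairpin on the y axis; the dotted line marks equal effects. The 116 red genes lie in the upper left and lower right, where the treatments moved a gene in opposite directions, and the 17 orange genes lie on the same side of both axes but away from the line.

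Of the opposite changes, Adora1, Sulf2, Slc13a4, Slc13a3, Igfbp1 and Tlcd2 had the smallest p among genes that passed the naming rule. Adora1 (ENSMUSG00000042429, chromosome 1, 134199223 to 134235431), the adenosine A1 receptor, stood at 35.4, 37.6 and 31.8 CPM in the GFP libraries and at 91.8, 87.7 and 94.8 CPM under Activin A. It stood at 44.6, 41.0 and 37.9 CPM under scramble and at 18.2, 15.6 and 18.8 CPM under the hairpin. The Activin A libraries were above all others and the hairpin libraries below all others, and the control groups lay between them. Adora1 rose by 1.39 ± 0.10 under Activin A and fell by 1.23 ± 0.10 under the hairpin, a difference of 2.62 ± 0.14 (edgeR adjusted p = 1.84e-07). Sulf2, an extracellular sulfatase that trims heparan sulfate, moved mainly under the hairpin, where it stood at 11.7, 6.99 and 10.5 CPM against 56.1, 53.5 and 53.9 CPM in scramble. Its rise under Activin A was smaller, from 37.1, 40.03 and 41.6 to 59.4, 56.1 and 57.5 CPM, and the difference was 3.03 ± 0.18 (edgeR adjusted p = 7.2e-07).

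A pair of genes of the sodium-coupled anion transporter family SLC13 shared this order. Slc13a4 (chromosome 6, 35267957 to 35308131), which carries sulfate, was at 1.52, 1.503 and 2.18 CPM in GFP and 31.3, 21.8 and 22.8 CPM in Activin A livers. In scramble it was at 1.63, 1.71 and 1.46 CPM and in hairpin livers at 0.383, 0.660 and 0.736 CPM. All 3 Activin A libraries exceeded every other library, and the hairpin libraries were the lowest. The difference was 5.28 ± 0.35 (edgeR adjusted p = 1.79e-06). Slc13a3, a dicarboxylate carrier, had means of 42.8 ± 11.2 (SD, n = 3) and 141 ± 10.6 CPM in GFP and Activin A livers and of 40.3 ± 1.21 and 23.1 ± 0.702 CPM in scramble and hairpin livers, a difference of 2.52 ± 0.20. The third tested gene of the family, Slc13a5, had no called difference (-1.14 ± 0.42), and the family was chosen after its values were seen. Tlcd2, involved in membrane lipid composition, rose by 0.78 ± 0.08 and fell by 0.54 ± 0.08 (difference 1.32 ± 0.11).

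**Figure D2:**
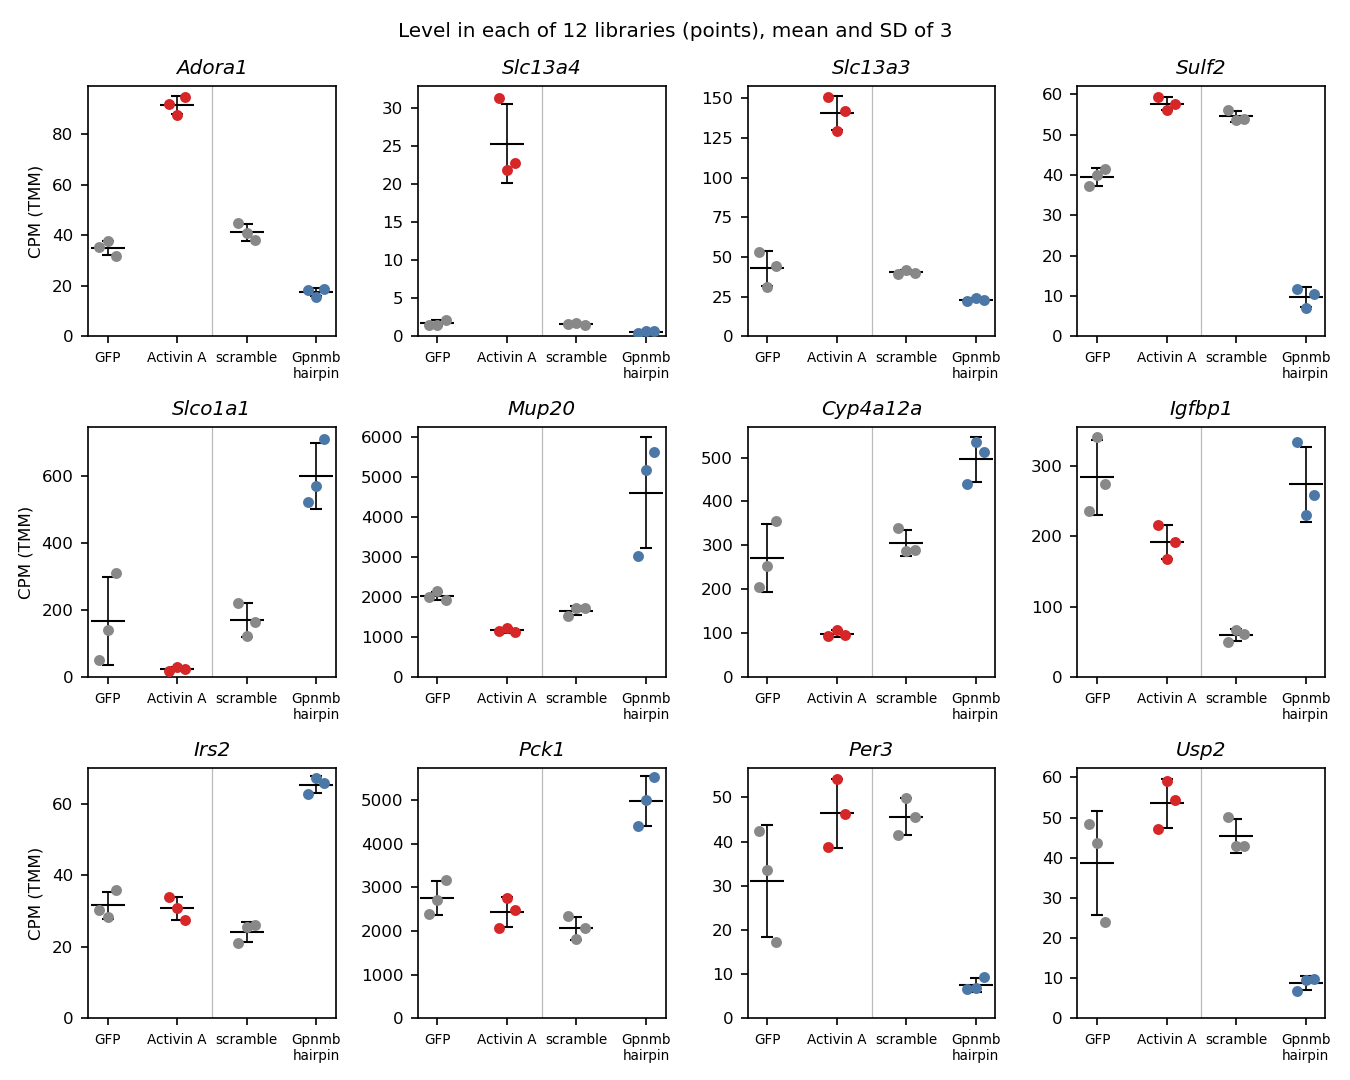
Each panel shows 1 gene, with its level in CPM (linear axis from 0) in the 3 libraries of each group as points and the mean ± SD as bars; the vertical line separates the Activin A arm from the hairpin arm. Adora1 and Slc13a3 are highest under Activin A and lowest under the hairpin, Slco1a1, Mup20 and Cyp4a12a show the reverse, and Igfbp1 is lowest in the scramble controls.

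Male-biased liver genes stood lower after Activin A, relative to the hairpin, in most cases. Of 22 tested members (23 listed), 17 had a negative difference and 1 a positive one, against 3.78% and 3.22% of all genes, and the median difference was -2.17 against -0.02 over all genes. Under Activin A 10 fell and 2 rose, and under the hairpin 16 rose and none fell. The count of negative differences was 16 without GFP library 3 and ran from 15 to 19 over all alternatives. Slco1a1 (chromosome 6, 141907282 to 141946962), an organic anion transporter of the hepatocyte membrane, stood at 50.4, 142 and 309 CPM in GFP and at 19.9, 31.3 and 24.7 CPM under Activin A. In scramble it stood at 223, 123 and 164 CPM and under the hairpin at 521, 569 and 711 CPM. The GFP libraries ranged widely, yet none of them reached down to an Activin A library, and no scramble library reached up to a hairpin library. The difference was -4.54 ± 0.63 (edgeR adjusted p = 0.000723), and -3.72 without GFP library 3.

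The major urinary proteins, pheromone carriers that male livers secrete in bulk, moved the same way. Mup20 (darcin) stood at 1991, 2146 and 1938 CPM in GFP livers and at 1153, 1241 and 1132 CPM in Activin A livers. It stood at 1536, 1725 and 1736 CPM in scramble and at 3017, 5179.5 and 5619 CPM in hairpin livers, again with no overlap between a treated group and its control. Mup20 fell by 0.79 ± 0.17 and rose by 1.47 ± 0.17, a difference of -2.25 ± 0.24 (edgeR adjusted p = 0.000127). Over the Mup family, chosen after its values were seen, 12 of 19 tested genes had a negative difference and none a positive one, and the differences ran from -6.72 for Mup12 to -0.32. Mup12 itself was uneven within GFP, at 109, 1077 and 919 CPM, and lay at 12.2 to 46.2 CPM under Activin A. These genes are near-identical and reads may have been split between copies, so the values of single copies are uncertain.

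Other enzymes of the list followed. Cyp4a12a, a male-specific fatty acid hydroxylase, had 272 ± 76.5 and 99.3 ± 7.41 CPM (SD, n = 3) in GFP and Activin A livers and 305 ± 29.4 and 496 ± 50.6 CPM in scramble and hairpin livers, a difference of -2.15 ± 0.22 (edgeR adjusted p = 0.000117). For Cyp7b1, an oxysterol hydroxylase, the hairpin libraries at 232, 334 and 346 CPM were the only ones to stand apart, since the other 9 lay between 50.5 and 130.1 CPM. Its difference was -1.77 ± 0.34. Hsd3b5, a steroid dehydrogenase, rose by 1.96 ± 0.59 under the hairpin and had -1.79 ± 0.72 under Activin A, which did not pass the test. Cyp2u1 went the other way, with a difference of 1.16 ± 0.22.

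Female-biased genes were fewer, with 9 of 16 listed genes tested. Of the 9, 2 had a positive and 1 a negative difference (median 0.64), against 3.22% and 3.78% of all genes. Under the hairpin 4 fell and 2 rose, with a median of -1.12, and under Activin A 2 fell and 1 rose. Their summed level was 134 to 139 CPM in scramble and 57.4 to 83.6 CPM in hairpin livers, and 73.2 to 205 CPM in GFP and 90.4 to 93.5 CPM in Activin A livers. Cyp2b9 stood at 39.3, 48.3 and 45.7 CPM in scramble livers and at 1.21, 0.165 and 0 CPM in hairpin livers, while GFP libraries held 14.5, 18.2 and 3.47 CPM and Activin A libraries 6.69, 5.10 and 6.75 CPM. The drop under the hairpin was -6.67 ± 0.65, and the change under Activin A, -0.97 ± 0.46, did not pass the test. The scramble level was itself above the GFP level (1.87 on the log2 scale, edgeR adjusted p = 0.0275). Its neighbour Cyp2b13 had 117 counts over the scramble libraries and 0 over the hairpin libraries, at least 31.6-fold lower against a floor of 3 counts per group. Cyp2b10, a target of the xenobiotic receptor CAR, fell by 4.34 ± 0.81 under the hairpin, to between 0.191 and 0.330 CPM, with no called change under Activin A (1.30 ± 0.52). Cyp2c69 moved with the male-biased genes instead, at -4.68 ± 0.93.

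**Figure D3:**
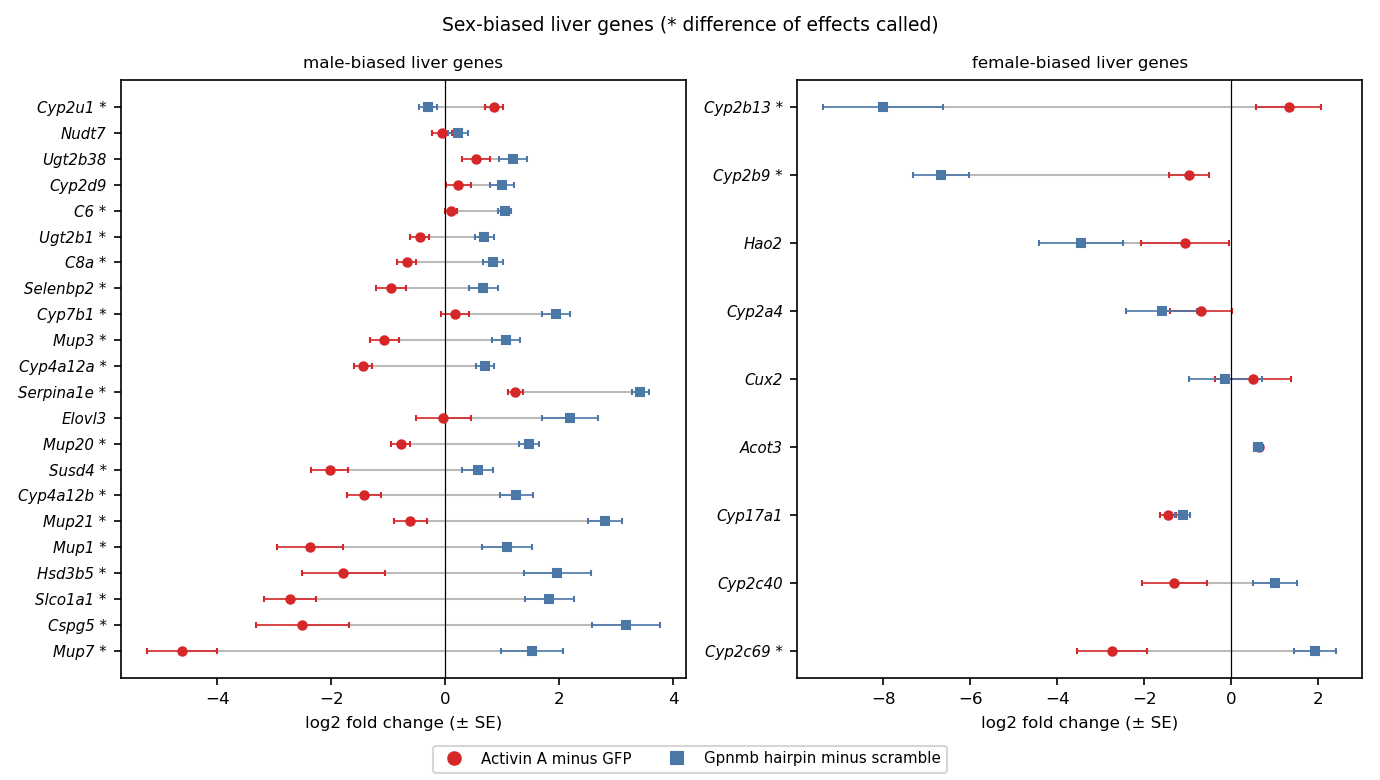
Log2 fold changes ± SE (n = 3 per group) of the male-biased (left) and female-biased (right) list members under Activin A (circles) and the Gpnmb hairpin (squares), sorted by their difference; the fitted value of Cyp2b13 rests on a group with 0 counts. In the left panel the squares lie to the right of the circles for all genes but Cyp2u1, and in the right panel no common order is seen.

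Transcripts of the growth hormone pathway, which acts on sex-biased liver genes, were read too. Whether that pathway had a part in the changes above was not tested. Of 13 listed genes 2 had a positive and 3 a negative difference, against 3.22% and 3.78% of all genes. Stat5b, the transcription factor of the pathway, stood at 91.4, 98.8 and 108 CPM in hairpin livers and between 66.1 and 79.7 CPM in the other 9 libraries, a rise of 0.41 ± 0.08 and a difference of -0.52 ± 0.12 (edgeR adjusted p = 0.0142). The call was lost with all 15 libraries and without Activin A library 1, scramble library 3 or hairpin library 3. Socs2, the feedback inhibitor that STAT5 induces, rose by 1.85 ± 0.30 under the hairpin, against 0.14 ± 0.30 under Activin A. Onecut1 (HNF6), which favours female-biased genes, rose by 0.85 ± 0.19 under Activin A, against -0.58 ± 0.20 under the hairpin. The receptor gene Ghr had a difference of 0.22 that did not pass the test, as did Igf1 at 0.08. Prlr, the prolactin receptor, dropped to 6.57, 14.7 and 12.5 CPM under Activin A from 47.0, 44.9 and 49.9 CPM. In scramble and hairpin livers it lay between 41.7 and 81.9 CPM, and the difference was -2.51 ± 0.30 (edgeR adjusted p = 0.000257).

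Of 19 tested genes of fasting and insulin action 7 had a negative and 4 a positive difference, against 3.78% and 3.22% of all genes. Under the hairpin 12 rose and 3 fell, where 8.94% and 9.16% of all genes did. Under Activin A 2 rose and 1 fell, against 3.19% and 5.86% of all genes. Between the controls 4 of the 19 were lower and 1 higher in scramble than in GFP, against 2.66% and 1.74% of all genes. The summed level of the list was 4997 to 6164 CPM in scramble and 9169 to 9859 CPM in hairpin livers. It was 7139 to 7451 CPM in GFP and 6420 to 7528 CPM in Activin A livers.  Without GFP library 3 the counts were 8 negative and 4 positive, and over all alternatives the negative count ran from 5 to 9.

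Promoters of Igfbp1 and Irs2 are shown because these members of the list rose together under the hairpin and hold the insulin response element core CAAAACAA (capitals, either strand), the sequence through which FOXO factors act at the Igfbp1 promoter. Each line is 300 bases of RefSeq sequence in build GRCm38.p6, 250 before and 50 after the annotated start, 5′ to 3′ on the gene's strand. Igfbp1 lies at chr11:7197537-7197836 on the plus strand and Irs2 at chr8:11008880-11009179 on the minus strand.
Igfbp1: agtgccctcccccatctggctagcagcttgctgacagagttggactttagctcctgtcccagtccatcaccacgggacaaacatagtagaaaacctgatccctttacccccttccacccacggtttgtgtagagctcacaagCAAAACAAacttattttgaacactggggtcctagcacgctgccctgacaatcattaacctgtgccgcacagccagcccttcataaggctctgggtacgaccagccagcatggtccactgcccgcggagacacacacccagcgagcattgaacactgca
Irs2: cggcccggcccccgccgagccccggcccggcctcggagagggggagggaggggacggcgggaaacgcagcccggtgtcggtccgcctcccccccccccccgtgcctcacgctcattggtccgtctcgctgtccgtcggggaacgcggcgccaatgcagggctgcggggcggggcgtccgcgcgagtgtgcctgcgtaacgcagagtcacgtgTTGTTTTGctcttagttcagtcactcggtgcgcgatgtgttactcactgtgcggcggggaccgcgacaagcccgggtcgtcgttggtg

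The match in Igfbp1 begins 108 bases before the start and that in Irs2, on the opposite strand, 38 bases before it. Such a match was present in 4 of 15 list members with a promoter in the RefSeq table (Irs1, Irs2, Igfbp1 and Lepr), and in 2.51% of 32851 RefSeq promoters of the same length. A match describes letters only.

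Igfbp1 (chromosome 11, 7197782 to 7202546), an insulin-repressed binding protein for insulin-like growth factors, stood at 236, 340.1 and 274 CPM in GFP and 216, 167 and 191 CPM in Activin A livers. Scramble livers held 49.97, 66.8 and 61.8 CPM and hairpin livers 333, 229.6 and 258 CPM. The hairpin libraries were thus at the level of the GFP libraries, and it was the scramble libraries that lay far below all others. Its effects were -0.56 ± 0.16 and 2.20 ± 0.17, with a difference of -2.76 ± 0.23 (edgeR adjusted p = 1.75e-05), and scramble was below GFP by -2.25 on the log2 scale (edgeR adjusted p = 1.06e-05). For Irs2, the insulin receptor substrate, the scramble libraries were also the lowest, at 20.9, 25.4 and 26.0 CPM. There scramble was below GFP by -0.39 on the log2 scale, which did not pass the test (edgeR adjusted p = 0.0685). The 3 hairpin libraries of Irs2, at 62.8, 67.3 and 65.9 CPM, were above all of the other 9, which lay between 20.9 and 35.9 CPM. The difference was -1.47 ± 0.16 (edgeR adjusted p = 0.000143).

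The gluconeogenic gene Pck1 (PEPCK) stood at 4396, 5005 and 5534 CPM in hairpin livers, above every other library (1809 to 3166 CPM), and its difference was -1.45 ± 0.20 (edgeR adjusted p = 0.00061). G6pc, which encodes glucose-6-phosphatase, rose by 1.26 ± 0.18 under the hairpin, against 0.28 ± 0.18 under Activin A. Tat, a tyrosine aminotransferase of fasting, rose by 0.69 ± 0.16, against -0.33 ± 0.16. Lepr, the leptin receptor, rose under both treatments, and more under the hairpin.

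Clock genes also differed between the treatments. All 17 listed genes were tested, and 8 had a positive and 3 a negative difference, against 3.22% and 3.78% of all genes. Under the hairpin 7 fell and 4 rose, and under Activin A 3 rose and none fell. Genes of the repressor arm were among the positive differences: Per2 (2.05 ± 0.34), Per3, Cry1, Cry2 and Ciart. So were Tef and Hlf, which encode D-box-binding factors. The negative differences were those of Npas2, Clock (-1.09 ± 0.23) and Nfil3. Without hairpin library 2 the positive count was 4, and without GFP library 3 it was 8. The labels do not give the hour at which livers were taken, and whether that hour differed between groups was not tested.

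The promoters of Ciart and Per3 are printed because they fell together under the hairpin and carry the clock's own elements, the E-box CACGTG bound by CLOCK and ARNTL in Ciart and the D-box core TTATGNAA bound by DBP, TEF, HLF and NFIL3 in Per3 (capitals, both strands searched). They come from the same RefSeq table and span the same window, at chr3:95882179-95882478 and chr4:151044616-151044915, both on the minus strand.
Ciart: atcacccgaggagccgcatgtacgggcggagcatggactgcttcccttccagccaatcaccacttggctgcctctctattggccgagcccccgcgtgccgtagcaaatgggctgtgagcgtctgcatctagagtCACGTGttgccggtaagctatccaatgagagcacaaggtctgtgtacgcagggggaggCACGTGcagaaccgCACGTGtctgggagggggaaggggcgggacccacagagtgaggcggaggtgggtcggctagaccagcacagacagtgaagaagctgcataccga
Per3: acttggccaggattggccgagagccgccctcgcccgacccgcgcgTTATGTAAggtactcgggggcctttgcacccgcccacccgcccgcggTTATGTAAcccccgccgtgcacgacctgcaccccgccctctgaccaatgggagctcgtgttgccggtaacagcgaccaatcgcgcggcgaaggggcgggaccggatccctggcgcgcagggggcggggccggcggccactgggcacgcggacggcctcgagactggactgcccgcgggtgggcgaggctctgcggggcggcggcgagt

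Ciart held 3 E-boxes and Per3 a pair of D-box cores. An E-box was found in 4 of 14 clock genes with a promoter in the table (Per1, Cry1, Tef and Ciart), against 7.15% of all 32851 promoters, and a D-box core in 2 of 14 (Per1 and Per3), against 3.38%. Of these 5 genes, Per1 had no called difference.

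Per3 (chromosome 4, 151003652 to 151044665) was at 42.4, 33.6 and 17.3 CPM in GFP, 38.8, 54.2 and 46.2 CPM in Activin A, 41.6, 49.8 and 45.6 CPM in scramble and 6.57, 6.77 and 9.34 CPM in hairpin livers. The hairpin libraries were below all others, and the remaining groups overlapped. The difference was 3.16 ± 0.35 (edgeR adjusted p = 0.000146). Ciart, a repressor of the clock, was detected at 0, 0.550 and 2.43 CPM under the hairpin and at 21.5, 12.5 and 16.9 CPM under scramble, a fall of 4.05 ± 0.75. Its Activin A effect of 0.07 ± 0.57 did not pass the test, and its difference of 4.12 ± 0.95 lost its call in DESeq2, in limma-voom and without hairpin library 2, with an adjusted p of up to 0.122. Usp2, a deubiquitinase with strong daily rhythm that is on no list, was at 6.89, 9.63 and 9.90 CPM under the hairpin and at 24.004 to 59.2 CPM in the other 9 libraries (difference 2.82 ± 0.29).

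Nfil3, the D-box repressor, rose by 1.63 ± 0.19 under the hairpin, to 36.8, 39.1 and 38.5 CPM. As with Igfbp1, its scramble libraries (11.5 to 13.2 CPM) were below its GFP libraries (18.2 to 38.0 CPM), by -1.16 on the log2 scale (edgeR adjusted p = 0.00785). Arntl, the core activator, rose by 1.80 ± 0.46 under the hairpin, but its difference of -1.31 ± 0.66 was not called. For Npas2 the 3 GFP libraries ranged from 0.414 to 4.53 CPM, and its difference went from -4.16 to -2.56 without GFP library 3.

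**Figure D4:**
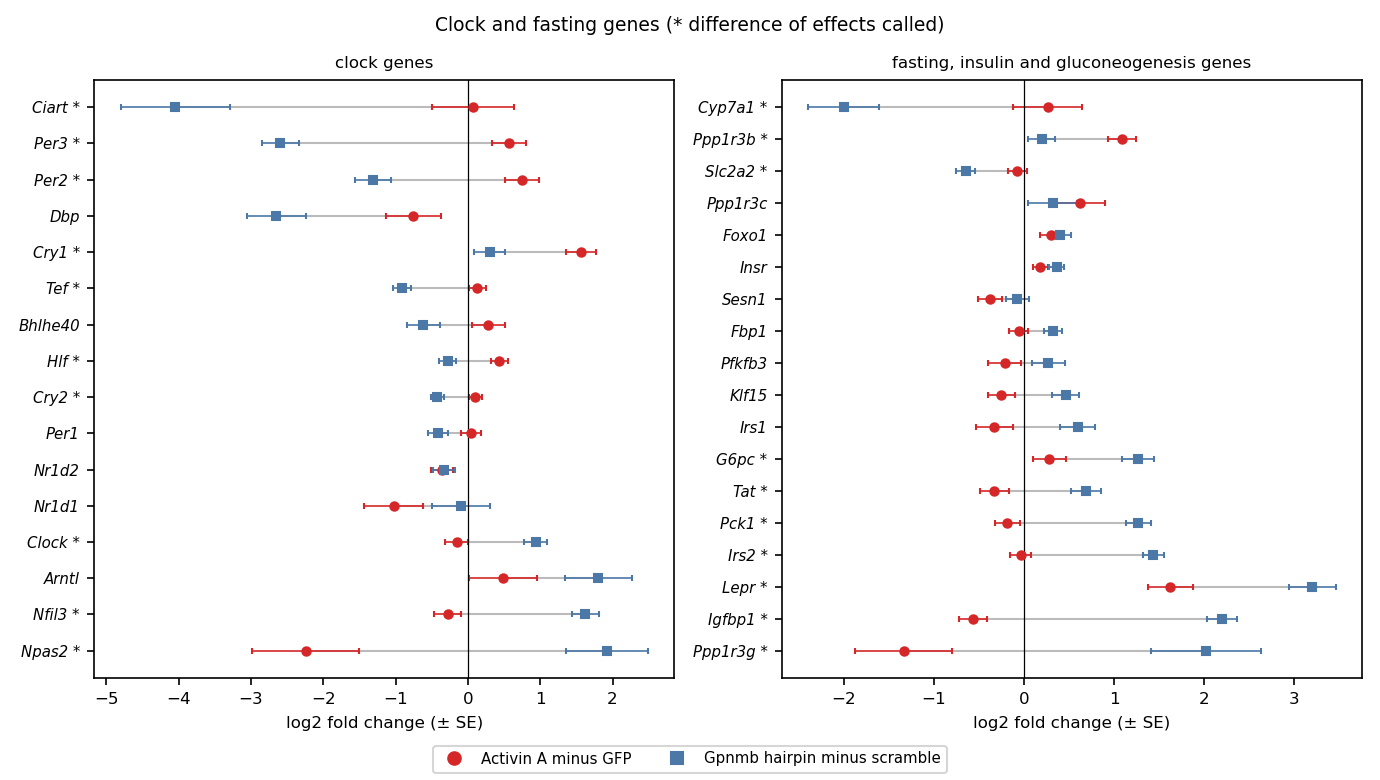
Log2 fold changes ± SE (n = 3 per group) of the clock genes (left) and of the fasting, insulin and gluconeogenesis genes (right) under Activin A (circles) and the Gpnmb hairpin (squares), sorted by their difference, for 16 of 17 and 18 of 19 tested members. The squares lie below 0 for Ciart and Per3 and above 0 for Npas2, Irs2, Lepr and Igfbp1.

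Of 25 fatty acid and triglyceride synthesis genes 6 had a positive difference and none a negative one, against 3.22% and 3.78% of all genes, with a list median of 0.13. Dgat2, which makes the last step of triglyceride synthesis, was at 685, 683 and 706 CPM under Activin A and 494, 486 and 451 CPM in GFP. It was at 373, 394 and 412 CPM under the hairpin and 539, 505 and 522 CPM in scramble, so both effects were free of overlap and opposite (0.54 ± 0.08 and -0.41 ± 0.08, difference 0.95 ± 0.11, edgeR adjusted p = 0.000235). Srebf1, the lipogenic transcription factor, rose from 446 ± 159 to 1023 ± 118 CPM (SD, n = 3) and fell from 349.8 ± 13.1 to 196 ± 58.3 CPM, a difference of 2.03 ± 0.33. Thrsp varied widely within GFP (827, 463 and 45.7 CPM) and lay at 12.4 to 20.4 CPM under the hairpin against 143 to 166 CPM under scramble. Its difference was 4.18 ± 0.86 with all libraries and 3.67 without GFP library 3. Agpat2 (0.97 ± 0.16) and the desaturase Scd1 (1.10 ± 0.30) also had positive differences, while Fasn (1.35) did not pass the test. Without GFP library 3 the list had 6 positive and 2 negative differences.

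Lipid droplet genes differed in both directions. Of 23 listed, 4 had a positive and 2 a negative difference, against 3.22% and 3.78% of all genes. The positive ones were Cidea, Mogat1, Fitm1 and G0s2, none of which had a called change under Activin A, and all of which fell under the hairpin. Cidea, which fuses lipid droplets, stood at 21.4, 7.37 and 2.49 CPM under the hairpin, against 38.3, 62.4 and 54.7 CPM in scramble and 62.2 to 111 CPM in the Activin A arm's 6 libraries. Its difference of 2.59 ± 0.62 lost its call without Activin A library 1 or 3, scramble library 2 or 3, or hairpin library 2. Mogat1, a monoacylglycerol acyltransferase, fell by 2.24 ± 0.29, and its difference, like that of Fitm1, was not called with all 15 libraries. The Mogat1 call was also lost without hairpin library 2. The droplet coat genes Plin2 and Plin3 had negative differences (-0.57 and -0.41). The Plin2 call was lost in most alternatives. Among 28 fat oxidation genes 5 had a negative and 1 a positive difference, against 3.78% and 3.22% of all genes. Cyp4a31, a fatty acid hydroxylase, fell under Activin A and rose under the hairpin, to 95.1, 139 and 141 CPM from 36.0, 45.7 and 40.8 CPM (difference -3.67 ± 0.51, edgeR adjusted p = 0.000723). Ppargc1a, a coactivator induced by fasting, did likewise (-0.63 ± 0.18 and 0.93 ± 0.18). The core enzymes Cpt1a, Acadm and Hadha had no called difference.

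Of 21 genes of secreted liver proteins, or hepatokines, 5 had a positive and 3 a negative difference, against 3.22% and 3.78% of all genes. Among the 21, 5 were changed by the treatments in opposite directions. Tsku (tsukushi) was at 494, 491 and 488 CPM in Activin A livers and 73.3, 71.1 and 40.5 CPM in hairpin livers, with the controls between them (135 to 266 CPM in GFP and 137 to 173 CPM in scramble). The difference was 2.69 ± 0.32 (edgeR adjusted p = 0.000238). Lect2, a chemotactic hepatokine, rose by 0.84 ± 0.16 and fell by 1.16 ± 0.16. Angptl8, a feeding-induced inhibitor of lipoprotein lipase, rose by 1.36 ± 0.34 and fell by 1.16 ± 0.37. Serpina12 (vaspin) and Igfbp1 were the members lower under Activin A and higher under the hairpin. Inhbe, which encodes the activin E subunit, fell by 0.98 ± 0.15 under the hairpin, to 98.1, 92.8 and 63.7 CPM from 152, 181 and 167 CPM, with no called change under Activin A.

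Zonated hepatocyte genes, where they differed, mostly did so by zone. Of 20 periportal genes 7 had a negative difference and none a positive one, against 3.78% and 3.22% of all genes. The count of 7 was 6 or 7 in all alternatives. Of 18 pericentral genes 5 had a positive and 1 a negative difference. Members with a called difference were thus a minority, 35% and 33.3% of the 2 lists. Cyp2f2, the periportal cytochrome, stood at 229, 345 and 291 CPM in Activin A livers against 649, 653 and 692 CPM in GFP, and at 790.1, 938 and 1015 CPM in hairpin livers against 748, 617 and 684 CPM in scramble. Its difference was -1.63 ± 0.19 (edgeR adjusted p = 0.000235). Ctsc, Pigr, Etnppl, Cps1 (-0.91 ± 0.23), Pck1 and Tat made up the rest, so that 2 of the 7 also count among the fasting genes. Glul, the pericentral glutamine synthetase, was at 1067, 1018 and 965 CPM in hairpin livers, below all other libraries (1339 to 1999 CPM), with a difference of 0.95 ± 0.15 (edgeR adjusted p = 0.00154). The Wnt targets Axin2, Lgr5 and Tbx3 had no called difference (0.38, 0.90 and 0.09), and Cyp2c29 was the negative member.

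Bile acid genes gave 2 positive and 4 negative differences among 24 tested, against 3.22% and 3.78% of all genes. Nr1h4 (FXR), the bile acid receptor, rose by 0.36 ± 0.10 under Activin A and fell by 0.32 ± 0.10 under the hairpin. Its target Nr0b2 (SHP) rose by 1.29 ± 0.27 under the hairpin, and Cyp7a1, the rate-limiting enzyme of bile acid synthesis that SHP represses, fell there by 2.00 ± 0.39. Neither had a called change under Activin A (-0.29 ± 0.27 and 0.26 ± 0.38). Cyp7a1 was higher in scramble than in GFP by 1.44 on the log2 scale. Hnf4a, a master regulator of hepatocytes, was at 833, 946 and 923 CPM in hairpin livers against 583, 469 and 513 CPM in scramble (difference -0.87 ± 0.21, edgeR adjusted p = 0.0191). That call was lost on leaving out any 1 of 6 libraries, Activin A 2 or 3, scramble 2 or 3, or hairpin 2 or 3. The GFP libraries, at 482, 659 and 809 CPM, spanned the Activin A libraries.

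Among the genes that Activin A alone changed was Ttr, the thyroid hormone and retinol carrier transthyretin. It stood at 6748, 6854 and 7078 CPM under Activin A and between 3057 and 4062 CPM in the other 9 libraries. It rose by 1.03 ± 0.10, against -0.08 ± 0.10 under the hairpin (difference 1.11 ± 0.14, edgeR adjusted p = 0.000355). Dio1, the deiodinase that activates thyroid hormone, was at 389, 314 and 359 CPM against 203, 181 and 150.1 CPM in GFP, with no called change under the hairpin (-0.30 ± 0.11). Of genes that fell, Apcs (serum amyloid P) stood at 32.9, 30.6 and 31.0 CPM under Activin A and at 60.1 to 80.8 CPM elsewhere (difference -1.32 ± 0.15, edgeR adjusted p = 0.000153). St6gal1, a sialyltransferase, lay between 52.6 and 63.8 CPM against 101 to 120.1 CPM elsewhere, and Sult1a1, a phenol sulfotransferase, fell by 1.66 ± 0.15. Over 24 acute phase genes 4 had a negative difference (Apcs, Il1rn, Crp and Lbp), and none a positive one, against 3.78% and 3.22% of all genes. Without GFP library 1 the negative count was 14, and without GFP library 2 there were 4 positive calls.

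A small set moved the same way by unequal amounts. Enho, which encodes adropin, rose from 2.30, 2.20 and 1.85 to 23.2, 19.4 and 25.4 CPM under Activin A and from 1.18, 0.853 and 0.691 to 2.30, 3.36 and 3.73 CPM under the hairpin. Both treated groups were clear of their controls, and the rise was larger under Activin A by 1.62 ± 0.33 (edgeR adjusted p = 0.009), a call lost, as were those of Il1rn and Mpeg1, with all 15 libraries. Il1rn, the interleukin-1 receptor antagonist, fell more under Activin A (to 2.27, 1.78 and 2.25 CPM) than under the hairpin (to 5.68, 4.46 and 5.83 CPM), from like controls of 8.19 to 12.2 CPM. Mpeg1, a macrophage pore protein, did the same (-1.70 ± 0.13 and -0.91 ± 0.12). Larger under the hairpin were the rises of Serpina1e, an alpha-1 antitrypsin paralogue (1.23 ± 0.14 and 3.42 ± 0.15), and Lepr (1.63 ± 0.25 and 3.20 ± 0.26). Serpina1e reached a similar level in both treated groups, 1633 ± 35.0 and 1502 ± 174 CPM, from unlike controls of 698 ± 166 CPM in GFP and 140.4 ± 3.98 CPM in scramble. Gstp1, a glutathione transferase, rose by 0.51 ± 0.11 and 1.46 ± 0.11, with a scramble level below GFP (-0.49), and reads may have been split with its near-identical copy Gstp-ps.

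Monocyte and macrophage markers fell under both treatments, whereas most markers of Kupffer cells, the resident macrophages, had no called change. Of 16 monocyte and macrophage markers 14 fell under each treatment, against 5.86% and 9.16% of all genes under Activin A and the hairpin. Only Mpeg1 had a called difference, 6.25% of the list against 7.00% of all genes. Lyz2 stood at 182, 198 and 135 CPM in GFP and 63.3, 71.6 and 68.6 CPM in Activin A livers, and at 122, 149.8 and 137 CPM in scramble and 59.0, 57.4 and 45.8 CPM in hairpin livers. Its fall was 1.34 ± 0.14 under Activin A and 1.33 ± 0.14 under the hairpin, with a difference of -0.01 (95% interval -0.41 to 0.40). Ptprc (CD45), carried by all leukocytes, fell by 1.08 ± 0.11 and 1.01 ± 0.11 (95% interval of the difference -0.40 to 0.26). In these bulk samples fewer cells of a type and less RNA per cell cannot be told apart. The summed level of the 16 markers was 601 to 703 CPM in GFP, 241 to 279 CPM in Activin A, 524 to 650.0 CPM in scramble and 246 to 332 CPM in hairpin livers. Of 14 Kupffer cell markers 2 fell and 1 rose under Activin A, and 3 fell and 1 rose under the hairpin. Of all genes 5.86% fell and 3.19% rose under Activin A, and 9.16% and 8.94% under the hairpin. The Kupffer list had a median change of -0.33 under each treatment. The summed level of the 14 was 808 to 1001 CPM in GFP and 812 to 849 CPM in Activin A livers. It was 914 to 925 CPM in scramble and 918 to 955 CPM in hairpin livers. In that sum C6 alone held 169 ± 3.86 CPM (SD, n = 3) in scramble and 347 ± 28.2 CPM in hairpin livers. The like sums therefore do not show that the other markers kept their level. Of these 14, C6 had a negative and Slc40a1 a positive difference.

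Lipid-associated macrophage markers fell under both treatments as well, 18 of 20 under Activin A and 14 under the hairpin. Of all genes 5.86% and 9.16% fell, and the list medians were -1.31 and -0.97. The list includes Gpnmb, the hairpin's own target. Its summed level was 2875 to 3165 CPM in GFP and 1881 to 1935 CPM in Activin A livers. In scramble and hairpin livers the sums overlapped, at 2347 to 2920 CPM and 2137 to 2540 CPM. Of these sums Plin2 alone held 1061 ± 56.5 CPM (SD, n = 3) in scramble and 1131 ± 188 CPM in hairpin livers. Trem2 (-1.88 ± 0.32 and -2.32 ± 0.33), Lgals3 (-2.14 ± 0.25 and -2.41 ± 0.26) and Mmp12 (-2.68 ± 0.34 and -2.89 ± 0.34) had no called difference. The 3 members that had one, Fabp5, Ctsl and Plin2, are also expressed outside macrophages. Fabp5, a fatty acid binding protein, was at 6.01, 9.08 and 8.12 CPM under Activin A against 16.3, 16.6 and 22.2 CPM in GFP, and at 45.6, 43.8 and 19.7 CPM under the hairpin against 17.6, 22.9 and 18.6 CPM in scramble, where 1 hairpin library lay within the scramble range (difference -2.13 ± 0.37, edgeR adjusted p = 0.0032).

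Interferon-stimulated genes fell in 24 of 28 cases under Activin A and in 19 under the hairpin, against 5.86% and 9.16% of all genes. Their median changes were -1.08 and -0.73. The difference was negative for 24 of the 28 in its point value, but only Ifi47 (-0.93) and Irf7 (-0.71) were called. These were 7.14% of the list, near the 7.00% of all genes, and the Irf7 call was lost in most alternatives. Of 30 matrix genes 15 fell under Activin A and 19 under the hairpin, against 5.86% and 9.16% of all genes, and 12 fell under both. The summed level of the 30 lay at 3071 to 3471 CPM in hairpin livers, against 2808 to 3145 CPM in scramble. Most of it was Fn1 (fibronectin), at 2273 ± 149 CPM (SD, n = 3) in hairpin and 1598 ± 19.0 CPM in scramble livers. Fn1 rose by 0.51 ± 0.09 and was the only 1 of the 30 called higher under the hairpin. The sum was 2636 to 2979 CPM in GFP and 2287 to 2423 CPM in Activin A livers. The fibrillar collagens Col1a1 and Col3a1 had differences of 0.17 ± 0.38 and 0.05 ± 0.36 that were not called. Col15a1, Mmp14 and Fn1 were the 3 with a negative difference, and none of the 3 was called in every alternative. Genes that both treatments raised by like amounts were fewer. Acot3, a peroxisomal thioesterase, was at 32.6, 31.4 and 31.4 CPM under Activin A against 20.2, 19.5 and 21.9 CPM in GFP, and at 27.9, 30.2 and 24.8 CPM under the hairpin against 19.3, 16.5 and 18.4 CPM in scramble, with a difference of 0.02 (95% interval -0.28 to 0.32).

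**Figure D5:**
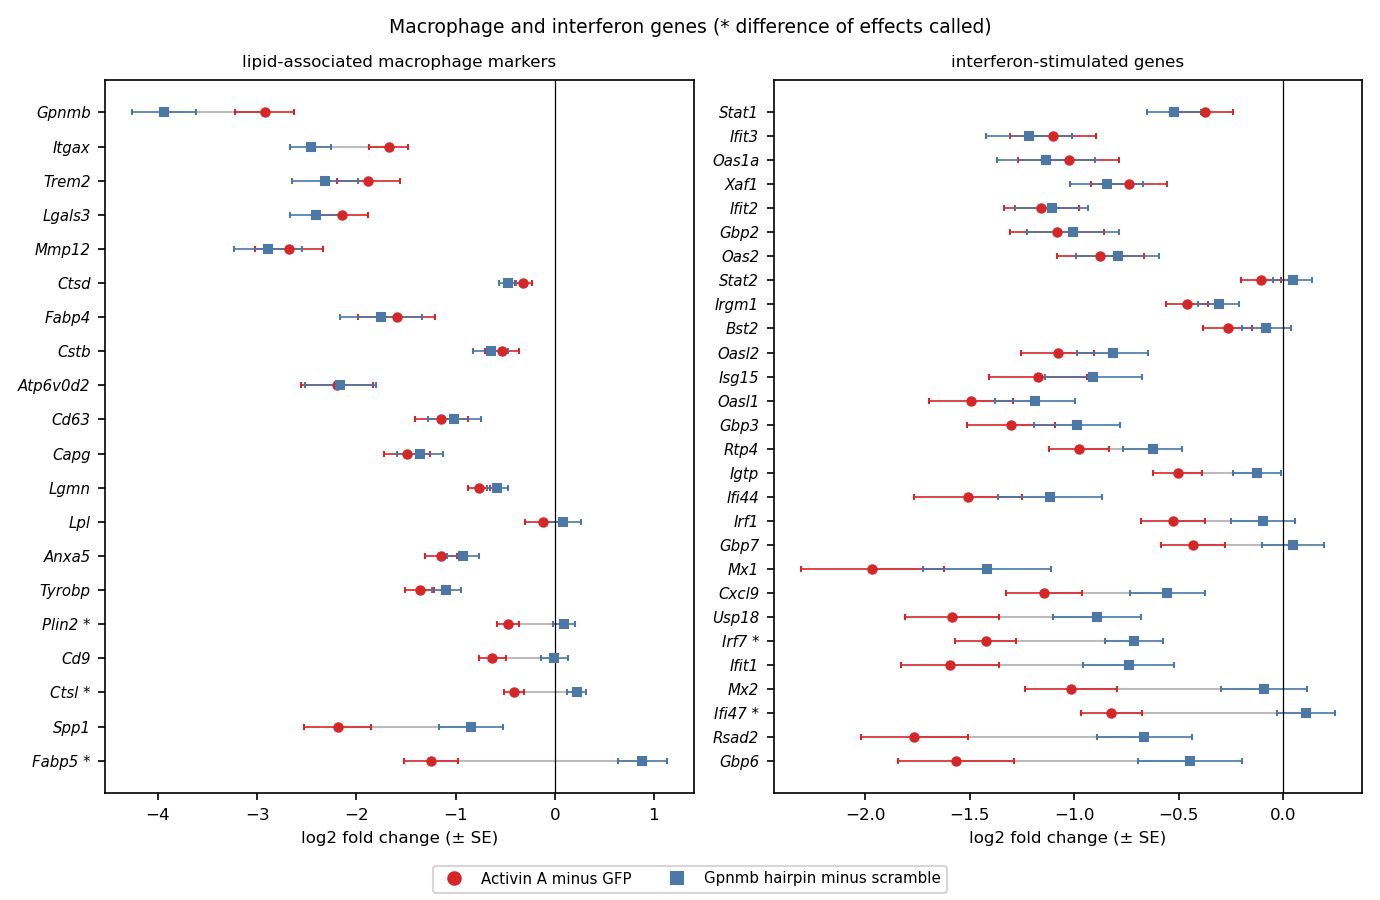
Log2 fold changes ± SE (n = 3 per group) of lipid-associated macrophage markers (left) and interferon-stimulated genes (right) under Activin A (circles) and the Gpnmb hairpin (squares), sorted by their difference. Most circles and squares lie below 0; Fabp5, Ctsl, Plin2, Irf7 and Ifi47 carry the called differences.

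Stress genes rose under the hairpin, from a scramble level below that of GFP. Of 23 unfolded protein and integrated stress genes 12 rose and 1 fell under the hairpin, while 2 rose and 2 fell under Activin A. Over all genes 8.94% rose and 9.16% fell under the hairpin, and 3.19% and 5.86% under Activin A. In the list 3 genes had a negative difference, against 3.78% of all genes. In the same list 13 genes were lower in scramble than in GFP, against 2.66% of all genes. Hspa5 (BiP), the main endoplasmic reticulum chaperone, was at 364, 392 and 379.6 CPM in scramble and 516, 772 and 782 CPM in hairpin livers, but GFP libraries held 688, 1099 and 532 CPM and Activin A libraries 442, 772 and 602 CPM. Thus 2 of 3 hairpin libraries lay within the span of the GFP libraries, and the call of its difference was lost in DESeq2, in limma-voom and without most single libraries. Asns, the asparagine synthetase induced by ATF4, was at 12.7, 12.9 and 10.02 CPM under the hairpin and at most 5.06 CPM in all other libraries. Its difference was -3.10 ± 0.43 (edgeR adjusted p = 0.000768), and its scramble level was below its GFP level by -1.57 on the log2 scale. Without GFP library 3 the list had 8 negative differences.

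Activin ligands, inhibitors and receptors had only positive called differences, some of which came from a fall under the hairpin. Of 19 tested ligands, inhibitors and receptors 4 had a positive difference (Inhba, Inhbe, Tgfbr2 and Smad6) and none a negative one, against 3.22% and 3.78% of all genes, a count of 1 without Activin A library 1 or 3 or scramble library 2 or 3, and of 5 without GFP library 3. Inhbe and Tgfbr2 had no called change under Activin A (0.18 ± 0.15 and 0.20 ± 0.15). Both fell under the hairpin (-0.98 ± 0.15 and -0.66 ± 0.15), and Inhba is itself a targeted gene. Fst, the activin trap follistatin, rose under both treatments (1.14 ± 0.25 and 0.78 ± 0.26) without a called difference. The type II receptors Acvr2a and Acvr2b had no called change under either treatment. Of 17 SMAD target genes 4 had a positive and 2 a negative difference, a larger share than the 7.00% of all genes. Under Activin A 2 of the 17 rose and 1 fell, against 3.19% and 5.86% of all genes. Under the hairpin 4 rose and 3 fell, against 8.94% and 9.16%. In scramble 5 of the 17 were lower than in GFP, against 2.66% of all genes. Pmepa1, a TGF-beta-induced inhibitor of the pathway, stood at 31.7, 23.4 and 27.1 CPM in Activin A livers against 9.11, 12.8 and 6.27 CPM in GFP, and at 3.76, 3.91 and 4.87 CPM in hairpin livers against 4.84, 7.81 and 7.60 CPM in scramble. The Activin A libraries exceeded every other library, and the difference was 2.23 ± 0.34 (edgeR adjusted p = 0.00147). Ski, a SMAD corepressor, rose by 0.80 ± 0.09 under Activin A, against 0.18 ± 0.09, a difference whose call was lost with all 15 libraries. Skil and Smad7 had no called difference.

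Biliary markers fell under Activin A in 5 of 11 cases and under the hairpin in none, against 5.86% and 9.16% of all genes. Their median changes were -1.59 and 0.03. Their summed level was 173 to 363 CPM in GFP and 81.3 to 87.5 CPM in Activin A livers, and 105 to 263 CPM in scramble and 119.6 to 136 CPM in hairpin livers. The median difference was -0.94, but only Ehf, an epithelial transcription factor, had a called difference. A difference was called for 2 of 15 sinusoidal endothelial markers (Clec4g and Eng, both positive, and both lost with all 15 libraries in the fit), against 7.00% of all genes. Of 16 stellate cell markers 9 fell under the hairpin and 5 under Activin A, against 9.16% and 5.86% of all genes. None of the 16 had a called difference with edgeR, DESeq2 or limma-voom (3 at an unadjusted edgeR p under 0.05). Over all alternatives the count of positive differences ran from 0 to 2. Among 11 B and plasma cell markers Ighm was higher in Activin A livers (77.8, 96.1 and 87.5 CPM) than in GFP (37.3, 15.9 and 53.8 CPM), and lay at 7.02 to 10.4 CPM in both hairpin arm groups (difference 1.56 ± 0.42). The call was lost in limma-voom and on leaving out any 1 library outside the GFP group, and scramble was below GFP for Ighm by -1.90 on the log2 scale. Ms4a1 (CD20) had 27 counts over the scramble libraries and 1 over the hairpin libraries. Hepatocyte identity genes as a list had 2 positive and 2 negative differences of 16, against 3.22% and 3.78% of all genes. Their summed level was 70695 to 86879 CPM in GFP and 90687 to 93859 CPM under Activin A, and 73084 to 86418 CPM in scramble and 90896 to 93834 CPM under the hairpin. Of 22 proliferation genes, Mki67 alone had a called difference (1.10), with falls under both treatments, and the call was lost in limma-voom, with all 15 libraries and without any 1 of 7 libraries.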

How the data were processed

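Bulk liver RNA was sequenced from stranded poly(A) libraries, per the labels' protocols. The authors deposited raw counts per gene in tables of 24357 genes (Activin A arm) and 24671 genes (hairpin arm). Build GRCm38 is named in the submitters' processing notes, and no source used here gives the aligner, the counter or the strand setting. The tables were joined on the gene identifier, leaving 22606 genes, and 36 other per-sample columns were not used. Genes in 1 table only had at most 230 counts in total. One fit of 4 groups (12 libraries) was made with edgeR 4.0.16 in R 4.3.3, using filterByExpr (minimum count 10), TMM factors, quasi-likelihood tests and Benjamini-Hochberg adjustment over 15538 genes, with calls at 0.05. Levels are CPM with TMM factors, not scaled by gene length. Depth of 16121073 to 23467867 counts limits genes with few counts. Deviations of same-numbered samples were correlated at -0.09 to 0.03, and no pairing was used in the main fit. With 3 libraries per group these values cannot exclude a shared batch. DESeq2 1.42.0, limma-voom 3.58.1, other scalings, filters and joins, a replicate block and leaving out each library were alternatives.

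The members and the 37 gene lists were chosen with earlier results of these data known. Named genes were Inhba and Gpnmb, the 10 highest and 10 lowest called differences (mean log2 CPM 1 or more), up to 6 with the smallest p in each class of effects, 6 alike in each direction (95% interval within 0.75), and 3 called genes per list. Other list members, and Slc13a5, are given as examples chosen after their values were seen. Some list members count in the totals but are not reported here by name.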

Additional observations from a re-analysis of the deposited data

How the results depend on the processing

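All 1088 called differences kept their sign under every alternative in which they were tested (1031 at a minimum count of 50). DESeq2 called 1474 differences, 1082 of them shared, and limma-voom 1053, with 1003 shared. DESeq2 put 551 genes higher and 723 lower in scramble than in GFP. With library size alone 311 genes rose under Activin A and 688 under the hairpin, the medians of all genes moved to -0.06 and -0.11, and 54.0% of called differences were positive, against 46.0% with TMM. With all 15 libraries in the fit 300 differences were positive and 336 negative, 276 genes rose under Activin A, 838 rose under the hairpin, and 27 were higher and 88 lower in scramble. The replicate block used the numbers in the sample titles. With it 357 differences were positive and 406 negative, 329 genes rose under Activin A, and 4 were higher and 10 lower in scramble. Asking also for a 2-fold change left 239 positive and 234 negative differences, 109 and 472 genes higher and lower under Activin A, 183 and 570 under the hairpin, and 47 and 82 between controls. Leaving out 1 library gave 303 to 655 positive and 305 to 663 negative differences, 258 to 820 and 465 to 1068 genes higher and lower under Activin A, 623 to 1753 and 773 to 1780 under the hairpin, and 18 to 1097 and 34 to 1137 between controls. The lowest counts of differences came without scramble library 3 (303 and 305) and Activin A library 3 (319 and 307). Negative differences numbered 376 without Activin A library 1, 339 without scramble library 2, and 356 and 379 without hairpin library 2 and 3. The cause was not tested. Genes at a few CPM are limited by counting, and 18 called genes had a group with at most 3 counts.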

Other observations

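Genes listed in only 1 of the joined tables were outside the comparison. Among those with at least 40 counts were skeletal muscle genes, listed only in the Activin A table and picked out after their values were seen. Mb (myoglobin) had 0, 12 and 63 counts in the GFP libraries and 87, 0 and 53 in the Activin A libraries. Myh2, a fast myosin heavy chain, had 0, 0 and 109 counts in GFP and 73, 0 and 30 under Activin A. Ckmt2, the sarcomeric mitochondrial creatine kinase, had 0, 1 and 28 counts in GFP and 49, 0 and 27 under Activin A. These counts were uneven within both groups and overlapped between them.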
